A study of Mus musculus with 6 samples.

Results

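The skeletal muscle fiber and myogenic genes are a list of 43 genes among the 39179 in the count table of 6 mouse osteosarcomas, and each of the 43 was found by its symbol and Ensembl identifier. The list covers 11 fast and 7 slow sarcomere genes, 2 developmental myosins, 8 genes of the shared sarcomere and Z-disc, 6 of calcium handling, 5 of energy supply, and 3 myogenic factors with 1 receptor subunit. It was proposed with the levels of these tumors in view, so the levels below are a description and carry no test. The RNA came from primary bone tumors of 3 CD44+/+; Nf2Δ2/+ mice (No244, No316 and No368) and 3 CD44-/-; Nf2Δ2/+ mice (No203, No279 and No364), on a mixed C57BL/6 x 129/Sv x FVB background. All mice, controls included, carried the mutation of the tumor suppressor Nf2, whose protein is merlin, and CD44 is the hyaluronan receptor whose loss the study compared. Each tumor was 1 library, and its number was taken as that of 1 mouse. Age and treatment were not given, and the label text on extraction names cell lines where the methods name tumor tissue. In bulk RNA, fewer cells of a type and less RNA per cell cannot be told apart.

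Skeletal muscle fibers contract when myosin heavy chains pull on actin filaments, under the control of calcium released from the sarcoplasmic reticulum. Fast and slow fibers build the same sarcomere from different genes for myosin, troponin and myosin-binding protein C, and developing or regenerating muscle uses embryonic and perinatal myosins before the adult ones. Pax7 marks the resting stem cells of muscle, Myod1 and Myog are the transcription factors that commit and differentiate myoblasts, and the adult fiber transcribes little of them. Bone is attached to muscle through tendon and periosteum, and osteosarcoma itself is a tumor of bone-forming cells.

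Total counts lay between 18076388 and 26954142 per tumor, and 3 counts, taken as the detection floor, equalled 0.0990 to 0.252 CPM. Levels are given as CPM, counts scaled to a common library size with the TMM factors of edgeR. Cd44, the targeted gene, had 137 CPM (No244), 243.6 (No316) and 240.3 (No368) with the gene intact, and fewer in each CD44-/- tumor, 19.2 (No203), 15.7 (No279) and 61.8 (No364). The counts of No316 and No368 agreed within sampling noise for 87.2% of 16671 genes and for 35 of the 38 members compared, against 15.7% to 24.0% of genes in the other 14 pairs, so both were counted as 1 sample in each mean ± SD. In No244 55.2% of counts fell on mitochondrial genes, where the other tumors had 5.94% to 12.5%, and albumin took 4.27% in No364 and at most 0.0110% elsewhere. Of 8 osteoblast-lineage markers, Ibsp, which encodes bone sialoprotein, had 7618 to 121563 counts in No244, No316, No368 and No203 but 99 in No279 and 43 in No364. Sp7, Alpl, Bglap and Dmp1 were also at most 19.6 CPM in those 2 tumors, while Col1a1 was at 11990.4 CPM in No279 and 765 in No364, so the osteoblast markers of the labelled tissue were largely missing from these 2 tumors.

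The members were unevenly spread over the 6 tumors. They summed to 33774 CPM in No244, 434 and 436 in No316 and No368, 1618 in No203, 213 in No279 and 61.4 in No364. As a share of all counts this was 1.91% in No244 (95% Wilson interval 1.90% to 1.91%), 0.180% in No203, 0.0571% and 0.0575% in No316 and No368, 0.0262% in No279 and 0.00435% in No364, where intervals cover counting error only. A single CD44+/+ tumor thus stood far above the others, a CD44-/- tumor came next, and the genotypes overlapped. Among the 43 members, 32 were highest in No244, 10 in No203, 1 in No368 and 0 in No316, beside 22.9%, 14.2%, 7.81% and 8.59% of the 16839 genes tested. With CPM by library size alone, without the TMM factors of 0.565 for No244 and 1.11 for No203, 30 were highest in No244 and 12 in No203, beside 5.87% and 19.6% of all genes tested, and the sums were 19056 CPM in No244 and 1799 in No203. Exact 95% Poisson intervals of the counts kept the highest tumor apart from the second for 39 members, 31 of them highest in No244 and 8 in No203. The order No244, No203, the near-identical pair, No279, No364 held in full for 25 members. Neither of these counts was made over all genes. Outside the near-identical pair, only 15.7% to 24.0% of the genes compared agreed within sampling noise between tumors, so levels apart in counting error were common. Left to the 5 tumors without No244, 42 of 43 members were highest in No203, where 23.2% of all genes tested were highest. The mitochondrial share was 55.2% in No244, 12.5% in No364, where the members were lowest, and 10.6% in No203. A relation of this share to the member levels was not tested. With mitochondrial counts set aside the members made up 4.25% of counts in No244 and 0.201% in No203.

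**Figure D1:**
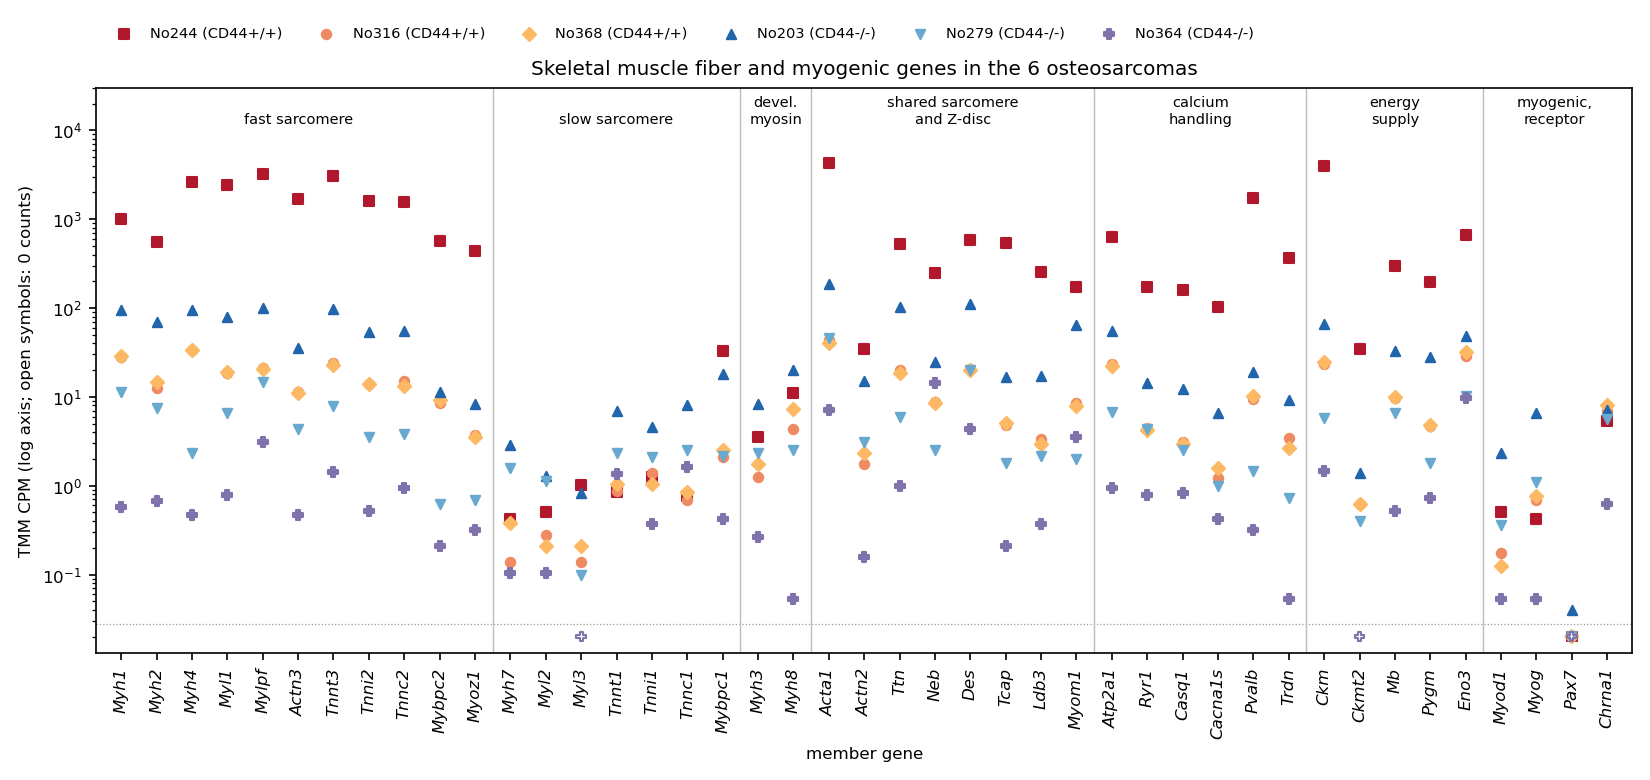
Level of each of the 43 members in each tumor, as TMM CPM on a log axis, grouped by role, with 1 symbol per tumor and open symbols for 0 counts. The No244 squares lie above the other tumors throughout the fast, shared, calcium and energy groups, but among or below them for most slow, developmental and myogenic genes, where the No203 triangles are highest.

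All 11 fast sarcomere genes followed the same order of tumors, summing to 18695 CPM in No244, 699 in No203, 192 and 191 in No316 and No368, 63.2 in No279 and 9.47 in No364. Myh4 (ENSMUSG00000057003, chr11:67238029-67260446, plus strand, GRCm38), the type IIb myosin heavy chain of the fastest fibers, was at 2599.6 CPM in No244 and 94.9 in No203, 33.9 and 33.7 in No316 and No368, 2.34 in No279 and 0.471 in No364. Mylpf, the fast regulatory light chain, was at 3249.8 CPM in No244 and 99.5 in No203, 21.1 and 20.7 in No316 and No368, 14.6 in No279 and 3.09 in No364. Tnnt3, the fast troponin T that ties the calcium sensor to the thin filament, was at 3037 CPM in No244 and 98.1 in No203, 24.2 and 22.9 in No316 and No368, 7.79 in No279 and 1.41 in No364. In each of these the counting intervals separated all neighbours in the order other than No316 and No368, and No364 held 9 to 59 counts of each where No244 held 30938 or more. The fast troponins Tnni2 and Tnnc2 and the light chain Myl1 reached 1608, 1542 and 2407 CPM in No244 and 53.5, 54.4 and 79.3 in No203. Actn3, the fast-fiber α-actinin, went from 1689.9 CPM in No244 to 0.471 in No364. Myh1 and Myh2, the type IIx and IIa myosins, were the fast genes in which No244 exceeded No203 least, by 10.6 and 8.05 times. Mybpc2, the fast myosin-binding protein C, and Myoz1, a calsarcin of fast Z-discs, were low outside No244, at 11.4 and 8.25 CPM in No203, and the counting intervals of No203 and No368 overlapped for Mybpc2. Per kilobase of annotated exon, which allows genes to be compared, Mylpf and Acta1 led in No244 at 3060.1 and 2822 CPM per kb, and Acta1 and Mylpf in No203 at 123 and 93.7.

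The myosin heavy chains of fast and developing fibers lie side by side on chromosome 11 and are close in sequence, which limits how a read of 51 bases can be assigned. The first 51 coding bases of 4 of them are given from the GRCm38 genome, 5′ to 3′ on the plus strand, with capitals at the bases that differ from Myh4. Their positions are chr11:67240624-67240674 in exon 2 of Myh4, chr11:67201882-67201932 in exon 3 of Myh1, chr11:67173116-67173166 in exon 3 of Myh2 and chr11:67079999-67080049 in exon 3 of Myh3.
Myh4: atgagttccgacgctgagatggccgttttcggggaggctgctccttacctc
Myh1: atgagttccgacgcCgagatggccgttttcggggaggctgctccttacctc
Myh2: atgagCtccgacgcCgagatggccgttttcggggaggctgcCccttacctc
Myh3: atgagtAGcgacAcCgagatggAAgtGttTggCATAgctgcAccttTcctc
Myh1 differs from Myh4 at 1 base of this stretch, Myh2 at 3 and Myh3 at 14. Over the whole transcripts, 31.6% of the 51-base windows of Myh1, 28.3% of Myh2, 21.0% of Myh8, 18.5% of Myh4 and 4.61% of Myh3 occur also in another gene's transcript. How reads matching several genes were counted is not given in the sources used here, so the split among Myh1, Myh2, Myh4 and Myh8 is less certain than their sum. Of the 43 members, 13 share over 5% of their windows and 17 share none. The largest share, 54.3%, is that of Tnnc2 with Ube2c, which overlaps it on the opposite strand. In all, 19 members share exon bases with an annotated gene of the opposite strand and 0 with one of the same strand, and whether the counting used the strand is not given in the sources used here.

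The slow sarcomere genes did not follow the fast ones. Tnnc1, the troponin C of slow and cardiac muscle, was at 0.756 CPM in No244 and 8.09 in No203, 0.695 and 0.840 in No316 and No368, 2.54 in No279 and 1.62 in No364. Tnnt1, the slow troponin T, was at 0.840 CPM in No244 and 6.98 in No203, 0.869 and 1.05 in No316 and No368, 2.31 in No279 and 1.36 in No364. Both were highest in No203, and these were the 2 members whose 3 CD44-/- tumors all lay above the 3 CD44+/+ tumors, a pattern shown by 9.49% of all genes tested, while in 0 members all 3 lay below, beside 9.57% of all genes. Myh7 (ENSMUSG00000053093, chr14:54970684-54994626, minus strand), the slow and cardiac β-myosin, was at 0.420 CPM in No244 and 2.89 in No203, 0.139 and 0.378 in No316 and No368, 1.58 in No279 and 0.105 in No364, with counts from 2 to 73. Tnni1, the slow troponin I, was at 1.26 CPM in No244 and 4.52 in No203, 1.39 and 1.05 in No316 and No368, 2.08 in No279 and 0.366 in No364. For Tnnc1, Tnnt1, Tnni1 and Myh7 the counting interval of No203 lay above that of every other tumor, while No244 overlapped the No316 and No368 pair. The light chains Myl2 and Myl3 were near the floor, with at most 34 and 21 counts. Myl3 and Mybpc1 were the 2 slow genes highest in No244 by TMM, and for Myl3 the intervals of No244 and No203 overlapped. By library size alone both were highest in No203, Myl3 at 0.926 CPM beside 0.569 in No244 and Mybpc1 at 20.06 beside 18.6. Mybpc1, slow myosin-binding protein C, which fast fibers transcribe too, was at 32.9 CPM in No244 and 18.04 in No203, 2.12 and 2.52 in No316 and No368, 2.15 in No279 and 0.419 in No364. In sum the 7 slow genes reached 37.7 CPM in No244 and 42.6 in No203, and Mybpc1 made up 32.9 and 18.04 of these.

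Each slow gene was set beside its fast counterpart, per kilobase, in 7 pairs. The slow share of Tnni2 and Tnni1 was 0.0326% in No244, 3.97% and 3.01% in No316 and No368, 3.397% in No203, 19.5% (95% Wilson interval 15.1% to 24.8%) in No279 and 22.5% (10.3% to 42.5%) in No364. For Myh4 and Myh7 it was 0.0113% in No244, 0.285% and 0.777% in the pair, 2.09% in No203, 32.1% in No279 and 13.4% in No364, where only 11 counts stand behind it. The median over the 7 pairs was 0.0326% in No244, 2.51% and 3.01% in No316 and No368, 3.40% in No203, 19.5% in No279 and 22.5% in No364. No244 had the lowest slow share in 6 of the 7 pairs, and the most slow-weighted tumors were the 2 with the fewest fiber counts. Myl1 and Myl3 were the exception, with 0 counts of Myl3 in No364.

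The developmental myosins were also highest in No203. Myh3 (ENSMUSG00000020908, chr11:67078300-67102291, plus strand), embryonic myosin, was at 3.53 CPM in No244 and 8.33 in No203, 1.25 and 1.76 in No316 and No368, 2.31 in No279 and 0.262 in No364. Myh8, the perinatal form, was at 11.1 CPM in No244 and 19.9 in No203, 4.34 and 7.35 in No316 and No368, 2.54 in No279 and 0.0523 in No364. In both genes No203 exceeded No244, and No364 held 5 and 1 counts. Set against the summed level of the 6 myosin heavy chain genes per kilobase, Myh3 and Myh8 together made up 0.228% in No244 and 7.002% in No203, 4.62% and 6.95% in No316 and No368, 14.9% in No279 and 14.7% in No364. The share of Myh4 ran the other way across most tumors, at 64.5% in No244, 45.2% and 42.6% in the pair, 35.99% in No203, 9.74% in No279 and 24.2% in No364. By counts not divided by length, the developmental share was 0.350% (95% Wilson interval 0.302% to 0.406%) in No244, 9.74% (9.08% to 10.4%) in No203 and 17.6% (15.2% to 20.3%) in No279. In No364 only 41 counts fell on these genes, and the interval of its 14.6% ran from 6.88% to 28.4%.

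**Figure D2:**
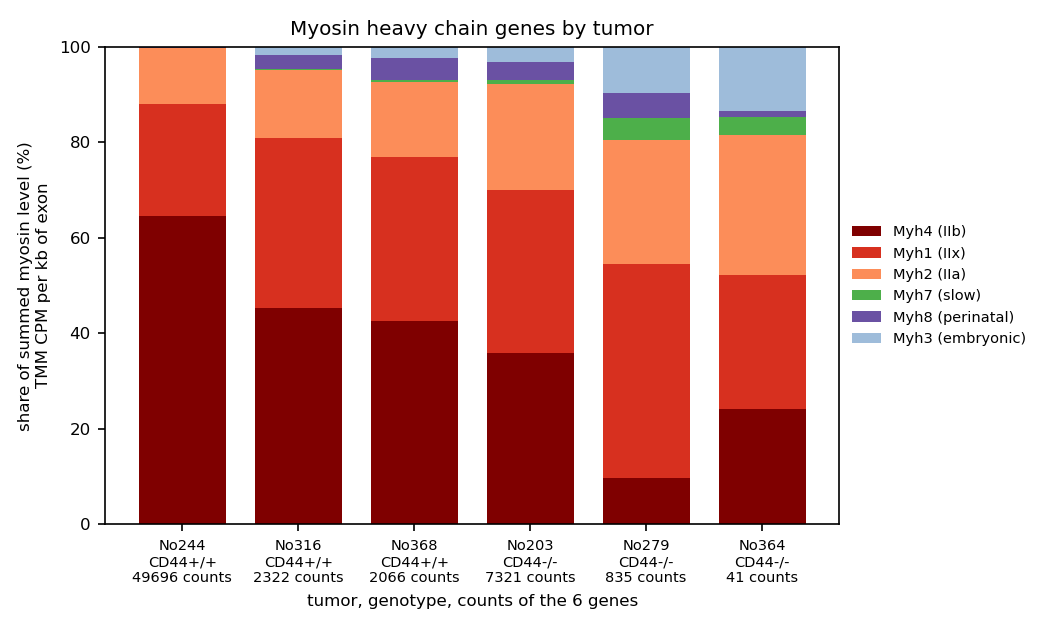
Share of each of 6 myosin heavy chain genes in their summed level per kilobase of exon (%), stacked for each tumor, with genotype and the counts of the 6 genes under each bar. Myh4 fills 64.5% of the No244 bar and 9.74% of the No279 bar, and the embryonic and perinatal myosins fill 0.228% in No244 and 14.9% in No279.

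Genes that fast and slow fibers share were also high in No244, with a median ratio to No203 of 7.73 where that of the fast genes was 30.3. Acta1 (ENSMUSG00000031972, chr8:123891769-123894751, minus strand), skeletal α-actin of the thin filament, was at 4335 CPM in No244 and 188 in No203, 43.6 and 39.9 in No316 and No368, 46.1 in No279 and 7.07 in No364. Ttn, the titin spring that spans the sarcomere, was at 529 CPM in No244 and 102 in No203, 20.3 and 18.8 in No316 and No368, 5.98 in No279 and 0.994 in No364. Des, the desmin filament that links Z-discs and is also made by smooth muscle and other cells, was at 589.6 CPM in No244 and 110.0 in No203, 20.6 and 19.98 in No316 and No368, 20.1 in No279 and 4.396 in No364. The 3 genes were highest in No244 and second in No203, and the intervals of No279 overlapped those of No316 for Acta1 and Des. Tcap, the titin cap of the Z-disc, and Ldb3, a Z-disc scaffold, reached 537 and 254 CPM in No244 and 16.9 and 17.2 in No203. Actn2, the α-actinin of all striated fibers, and Myom1, an M-band protein, were 2.26 and 2.66 times higher in No244 than in No203. Neb, the nebulin ruler of the thin filament, was at 250.1 CPM in No244 and 24.7 in No203, 8.65 and 8.61 in No316 and No368, 2.51 in No279 and 14.3 in No364. Its level in No364 lay above those of No316, No368 and No279, unlike that of Acta1. The 42 members without Neb summed to 47.05 CPM in No364.

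All 6 calcium handling genes were highest in No244 and second in No203. Pvalb, the calcium buffer parvalbumin of fast fibers, was at 1734 CPM in No244 and 18.9 in No203, 9.38 and 10.2 in No316 and No368, 1.45 in No279 and 0.314 in No364. Of all members it had the widest gap between No244 and No203, 91.7 times. Atp2a1, the fast calcium pump of the sarcoplasmic reticulum, was at 636 CPM in No244 and 55.04 in No203, 23.7 and 22.5 in No316 and No368, 6.73 in No279 and 0.942 in No364. Ryr1, its calcium release channel, and Cacna1s, the voltage sensor of the transverse tubule, were at 173 and 103 CPM in No244, 14.3 and 6.503 in No203, and 0.785 and 0.419 in No364. Casq1, the calcium store protein, and Trdn, the triadin that anchors it, differed between No244 and No203 by 13.1 and 39.2 times.

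Energy supply showed the same order in all 5 genes. Ckm (ENSMUSG00000030399, chr7:19404776-19422841, plus strand), muscle creatine kinase, was at 3947 CPM in No244 and 66.5 in No203, 23.2 and 24.6 in No316 and No368, 5.78 in No279 and 1.47 in No364. Eno3, muscle enolase, was at 671 CPM in No244 and 48.5 in No203, 28.7 and 31.8 in No316 and No368, 10.2 in No279 and 9.79 in No364, and its intervals in No279 and No364 overlapped. Mb, the oxygen store myoglobin of oxidative fibers, was at 300.0 CPM in No244 and 33.1 in No203, 9.801 and 9.99 in No316 and No368, 6.603 in No279 and 0.523 in No364. The oxidative Mb and the glycogen phosphorylase Pygm differed less between No244 and No203, by 9.06 and 7.14 times, than Ckm, by 59.4 times. Ckmt2, the mitochondrial creatine kinase of muscle, was at 34.5 CPM in No244 and at most 1.39 elsewhere, with 0 counts in No364. The mitochondrial counts of No244 come from the mitochondrial genome, to which none of these nuclear genes belongs.

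The myogenic transcription factors were low throughout and highest in No203. Myog (ENSMUSG00000026459, chr1:134289989-134292548, plus strand), myogenin, was at 0.420 CPM in No244 and 6.66 in No203, 0.695 and 0.756 in No316 and No368, 1.09 in No279 and 0.0523 in No364, with 168 counts in No203 and 5 in No244. Myod1 (ENSMUSG00000009471, chr7:46376474-46379099, plus strand) was at 0.504 CPM in No244 and 2.34 in No203, 0.174 and 0.126 in No316 and No368, 0.363 in No279 and 0.0523 in No364, with 59 counts in No203 and 6 in No244. The counting interval of No203 lay above every other tumor for both genes, and the other 5 tumors overlapped their neighbours in order. Pax7, the stem cell factor, had 1 count in No203 and 0 in the other 5 tumors, under the floor everywhere. Chrna1 (ENSMUSG00000027107, chr2:73563215-73580338, minus strand), the acetylcholine receptor subunit of the neuromuscular junction, which spreads over the fiber when nerve contact is lost, was at 5.38 CPM in No244 and 7.098 in No203, 6.88 and 8.102 in No316 and No368, 5.68 in No279 and 0.628 in No364. It lay within 5.38 and 8.10 CPM in 5 tumors and was low in No364, and by library size alone it was also lower in No244 (3.03) than in the 4 others (7.01 to 10.7).

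To compare tumors that differ in fiber RNA, these genes were also expressed per 1000 counts of Acta1. Myog came to 0.0969 (95% interval 0.0414 to 0.227) in No244 and 35.4 (95% interval 30.4 to 41.3) in No203. It was 15.9 (95% interval 10.3 to 24.7) and 18.9 (95% interval 11.9 to 30.1) in No316 and No368, 23.6 (95% interval 16.8 to 33.3) in No279 and 7.41 (95% interval 1.301 to 42.2) in No364. Thus No244 stood below the 5 other tumors, which lay nearer to each other. Myod1 came to 0.116 (95% interval 0.0533 to 0.254) in No244 and 12.4 (95% interval 9.62 to 16.1) in No203, with the other tumors between. Myh3 was 0.814 (95% interval 0.602 to 1.100) in No244 and from 28.7 to 50.1 in the others. Chrna1 was 1.24 in No244, 37.7 in No203 and 88.9 to 203.2 in the other 4 tumors. Acta1 itself was 23.0 times higher in No244 than in No203, and a ratio to it carries that difference.

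**Figure D3:**
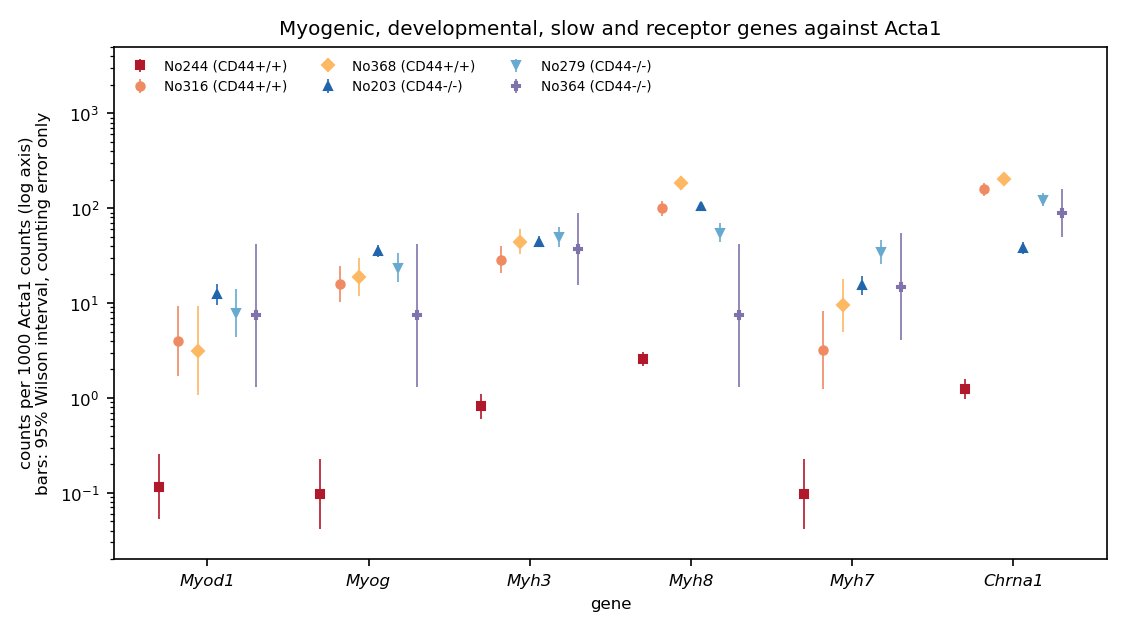
Counts of 6 members per 1000 counts of Acta1 in each tumor, on a log axis, with 95% Wilson intervals that cover counting error only. The No244 squares lie below the other tumors in each of the 6 genes, at 0.0969 for Myog beside 7.41 to 35.4 elsewhere, and their intervals overlap those of no other tumor except for Myh8 in No364.

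The contrast between No244 and No203 separated the groups of members. The ratio of No244 to No203 was 8.05 to 52.6 for the 11 fast genes (median 30.3), 2.26 to 31.9 for the 8 shared genes (median 7.73), and 11.6 to 91.7 for calcium handling (median 14.5). It was 0.0935 to 1.83 for the 7 slow genes (median 0.279), 0.424 and 0.556 for the developmental myosins, 0.0631 for Myog and 0.216 for Myod1. The median over the 16801 genes tested with counts in No203 was 0.981. By library size alone that median was 0.498 and every ratio was lower by the same factor, with medians of 15.4 for the fast genes, 3.92 for the shared, 7.35 for calcium handling and 0.141 for the slow genes, which reached at most 0.926. The fast and slow genes did not overlap in this ratio, and the median of the shared genes lay between theirs. The scaling multiplies all ratios alike, so the second scaling could not alter this order. In No244 the slow genes other than Mybpc1 held only 5 to 15 counts each. Between No203 and the mean of No316 and No368 the groups were closer, with medians of 3.81 for the fast genes, 7.28 for the slow, 5.32 for the shared and 4.47 for the developmental ones, beside 1.004 over all genes tested.

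**Figure D4:**
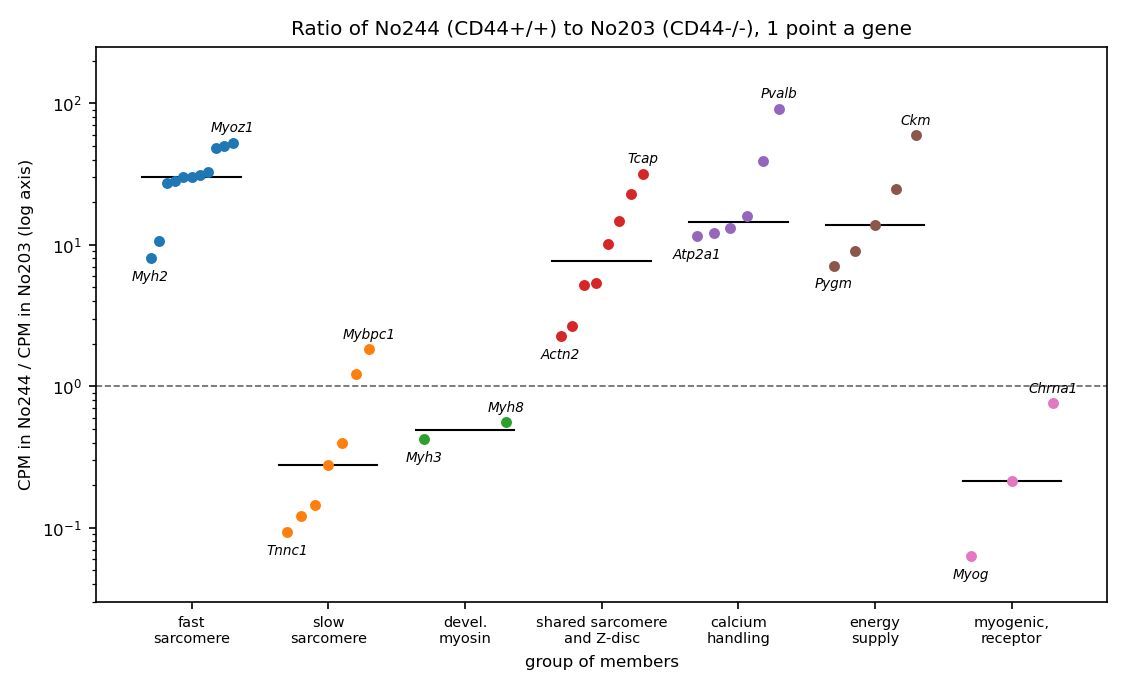
Ratio of the CPM in No244 to that in No203 for each member with counts in both, on a log axis, by group, with TMM scaling, bars at the group medians and a dashed line at a ratio of 1. Fast, shared, calcium and energy genes all lie above the line, and 5 of 7 slow genes, both developmental myosins, Myod1, Myog and Chrna1 below it. Pax7, with 0 counts in No244, is not drawn.

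Stretches of 250 bases upstream of the RefSeq transcription start (build GRCm38.p6) were read for the 35 members that have an entry. Those of Acta1, Myh4 and Myog are shown because Acta1 and Myh4 were highest in No244 and Myog was not. Capitals mark exact matches, on either strand, to the E-box letters CAGCTG and CAGGTG, to TATAAA and to the MEF2 motif. The motif was written YTAWWWWTAR, where Y is C or T, W is A or T and R is A or G. Other E-box letters and near matches were not searched and are not marked. They lie at chr8:123894776-123895025 on the minus strand for Acta1, chr11:67237562-67237811 on the plus strand for Myh4 and chr1:134289754-134290003 on the plus strand for Myog, written 5′ to 3′ on the strand of the gene.
Acta1: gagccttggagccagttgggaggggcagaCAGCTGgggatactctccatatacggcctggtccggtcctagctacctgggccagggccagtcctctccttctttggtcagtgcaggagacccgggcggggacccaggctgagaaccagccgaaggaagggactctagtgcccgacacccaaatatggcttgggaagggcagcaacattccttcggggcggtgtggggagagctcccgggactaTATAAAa
Myh4: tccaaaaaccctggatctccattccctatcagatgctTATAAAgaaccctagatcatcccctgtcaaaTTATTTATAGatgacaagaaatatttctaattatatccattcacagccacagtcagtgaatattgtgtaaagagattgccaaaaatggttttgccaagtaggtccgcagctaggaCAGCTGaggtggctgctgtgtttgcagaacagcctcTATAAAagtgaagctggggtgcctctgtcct
Myog: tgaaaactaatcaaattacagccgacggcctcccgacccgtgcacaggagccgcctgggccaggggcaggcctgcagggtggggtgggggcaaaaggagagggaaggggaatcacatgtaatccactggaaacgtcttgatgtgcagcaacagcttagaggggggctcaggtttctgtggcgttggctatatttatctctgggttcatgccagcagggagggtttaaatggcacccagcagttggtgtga
The Acta1 stretch holds 1 CAGCTG and 1 TATAAA, that of Myh4 1 CAGCTG, 3 TATAAA and 1 MEF2 match that overlaps a TATAAA. That of Myog holds no exact match, but its ctatatttat differs from the MEF2 motif only in the last base. A stretch without capitals is thus not shown to lack E-boxes or MEF2 sites. CAGCTG occurred upstream of 14 of the 35 members (40.0%) and of 12.8% of 27025 promoters of the same length. CAGGTG occurred in 9 members (25.7%, against 17.1%), TATAAA in 7 (20%, against 12.97%) and the MEF2 motif in 5 (14.3%, against 3.01%). Members with CAGCTG included Ckm, Des, Myh4 and Mylpf, but also the slow Tnni1 and the receptor gene Chrna1, which did not follow the fiber order. A match is a description of letters and not of factor binding.

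Companion genes of muscle outside the list were read the same way. Of 28 other fiber structure genes 23 were highest in No244, as were 12 of 12 of the triad and membrane and 11 of 12 of muscle energy, beside 22.9% of all genes tested. By library size alone these were 21, 10 and 11, beside 5.87%. Their sums were 5518 CPM in No244, 1007 in No203 and 340.0 in No364 for fiber structure, where Tpm1, a tropomyosin also made outside muscle, took 3168, 554 and 145. Tpm2 was at 352 CPM in No244 and 104 in No203, 12.6 and 11.8 in No316 and No368, 64.8 in No279 and 7.48 in No364, while the widely expressed Tpm3 lay between 99.1 and 219 CPM in all tumors. In the triad list Srl, the calcium store protein sarcalumenin, was at 118 CPM in No244 and 20.8 in No203, and Jsrp1 at 97.9 and 4.76. Jph2, a junctophilin, was higher in No279 (29.7 CPM) than in No203 (13.4). Pgam2, muscle phosphoglycerate mutase, was at 275 CPM in No244 and 57.1 in No203, Pfkm at 134 and 24.3, and Ak1 at 112 and 44.9, beside 116 and 118 in No316 and No368. Myoz3, a calsarcin, had 0 counts in all tumors.

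The 16 genes of myogenic regulation and regeneration were divided, 9 highest in No244 and 7 in No203 by TMM, and 6 and 7 by library size alone. Cdh15, the M-cadherin of muscle precursors, was at 128 CPM in No244 and 56.03 in No203, 91.7 and 93.2 in No316 and No368, 0.957 in No279 and 0.523 in No364. By TMM Cdh15 thus lay within 91.7 and 128 CPM in the 3 CD44+/+ tumors, whose members summed to 33774, 434 and 436 CPM. Of these tumors No316 and No368 were near-identical. By library size alone, without the TMM factors of 0.565 for No244 and 1.31 and 1.32 for No316 and No368, Cdh15 was lower in No244 than in No316 and No368. Ncam1, a cell adhesion molecule also of nerve, was at 78.8 CPM in No244 and 35.6 in No203, 20.2 and 16.9 in No316 and No368, 17.6 in No279 and 1.94 in No364. Pax3, a transcription factor of embryonic muscle precursors, neural crest and melanocytes, named here after its values were seen, had 1788 counts in No203, 1 in No368 and 0 in the others. In the same tumor Sox10, a transcription factor of neural crest and Schwann cells also named after its values were seen, had 51 counts, beside 0 to 2 elsewhere.

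Markers of other cell types were summed per tumor to stand beside the fiber level. The 6 adipocyte genes came to 25.2 CPM in No244 and 24.7 in No203, 1.43 and 1.13 in No316 and No368, 0.858 in No279 and 12.98 in No364. Adipoq, adiponectin, had 132 counts in No244, 95 in No203, 12 in No279, 3 and 1 in No316 and No368 and 0 in No364, while Lep, leptin, had at most 2 counts in any tumor. Most of the sums in No244 and No203 came from Adipoq and Cfd, the protease adipsin, with 12.02 and 18.9 CPM of Cfd, while Plin1 was highest in No316 and Cidec in No364 (12.6 CPM). Of the 6 genes, 3 in No244 and 2 in No203 had 3 counts or fewer. The 6 nerve and Schwann genes came to 31.1 CPM in No244 and 49.4 in No203, 7.37 and 8.86 in No316 and No368, 29.3 in No279 and 9.11 in No364. The 6 smooth muscle genes came to 83.4 CPM in No244 and 153 in No203, 73.8 and 74.5 in No316 and No368, 153 in No279 and 57.3 in No364, highest in No203 and No279. The 5 tendon genes came to 356 CPM in No244 and 1823 in No203, 654 and 659.6 in No316 and No368, 671 in No279 and 49.3 in No364, of which Fmod was 1693 in No203. Of the 6 heart genes, the atrial light chain Myl7 had 5 counts in No364 and 0 in the others, the cardiac myosin Myh6 had at most 37 counts, and Tnni3, cardiac troponin I, reached 9.75 CPM in No244. In sum the 6 heart genes came to 13.6 CPM in No244 and 9.75 in No203, 12.2 and 13.7 in No316 and No368, 5.58 in No279 and 1.62 in No364. Their 162 counts in No244 stood beside 30938 of Myh4, and their 352 and 326 in No316 and No368 beside 976 and 803. The 6 hepatocyte genes summed to 96268 CPM in No364, where the members were lowest, and to at most 133 elsewhere. The part of any of these cell types in the member levels was not tested.

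The comparison the study was made for, CD44-/- against CD44+/+ tumors, was fitted over all genes with the quasi-likelihood test of edgeR. It called 0 of 16839 genes (0%) at an adjusted p under 0.05, with a smallest adjusted p of 0.452 and 1810 genes at an unadjusted p under 0.05, and DESeq2 called 419 of 17952 (2.33%). Of the 43 members 39 passed the low-count filter, and Myl2, Myl3, Myod1 and Pax7 did not. Neither tool called a member, though DESeq2 gave an adjusted p to only 14 of them. At an unadjusted p under 0.05 Tnnc1 and Tnnt1 were higher and Mybpc2 lower in CD44-/- tumors, 2 and 1 of 39 beside 6.44% and 4.31% of all genes. The log2 fold change was below 0 for 33 of the 39 members, beside 44.9% of all genes tested, and the median was -3.41 for the members and 0.11 for all genes.

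Acta1 averaged 2188 ± 3036 CPM (SD, n = 2) in CD44+/+ and 80.5 ± 95.3 CPM (SD, n = 3) in CD44-/- tumors, a log2 fold change of -4.19 ± 2.17 (SE) with an adjusted p of 0.499 by edgeR. For Ckm the log2 fold change was -5.76 ± 2.59 (SE) with an adjusted p of 0.468, and for Myh4 -4.77 ± 2.57 (SE) with an adjusted p of 0.514. These genotype means rest on the distance of No244 from the other tumors, and for these 3 genes the SD of the CD44+/+ group exceeded its mean. Myh7 averaged 0.339 ± 0.114 CPM (SD, n = 2) in CD44+/+ and 1.53 ± 1.396 CPM (SD, n = 3) in CD44-/- tumors, a log2 fold change of 2.31 ± 1.14 (SE) with an adjusted p of 0.491 by edgeR. For Myh3 it was 0.75 ± 1.12 (SE) with an adjusted p of 0.811, for Myog 2.04 ± 1.36 (SE) with an adjusted p of 0.577 and for Chrna1 -0.60 ± 0.84 (SE) with an adjusted p of 0.796 by edgeR. All fast, shared, calcium and energy genes had fold changes below 0, while Myh7, Tnnt1, Tnni1, Tnnc1, Myh3 and Myog had fold changes above 0, none of them called. Without No244, the median over 41 members was 0.68 and 33 of the 41 lay above 0, beside 41.4% of all genes below 0, so that the direction of the member median was set by 1 tumor. Among the remaining tumors 42 of 43 members were highest in No203. The member sums of No279 and No364, 213 and 61.4 CPM, lay below the 434 and 436 of No316 and No368. The positive median thus does not mean that the CD44-/- tumors were each higher. The CD44+/+ side then held only No316 and No368, which count as 1 sample, and adjusted p-values of that fit are not given. Acta1 and Ckm moved to 0.95 and 0.04 without No244, and Tnnc1, Tnnt1 and Myh7 remained above 0 at 2.40, 1.88 and 2.56. The biological coefficient of variation over all genes was 0.708, estimated with No316 and No368 as separate libraries. Of the 57 companion genes tested 54 had fold changes below 0, beside 44.9% of all genes tested, and edgeR called none (0 of 57). DESeq2 called 1 of the 33 to which it gave an adjusted p, beside 2.33% of all genes with one. Of all 68 companions 55 were highest in No244, beside 22.9% of all genes tested, and their fold changes without that tumor are not given.

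**Figure D5:**
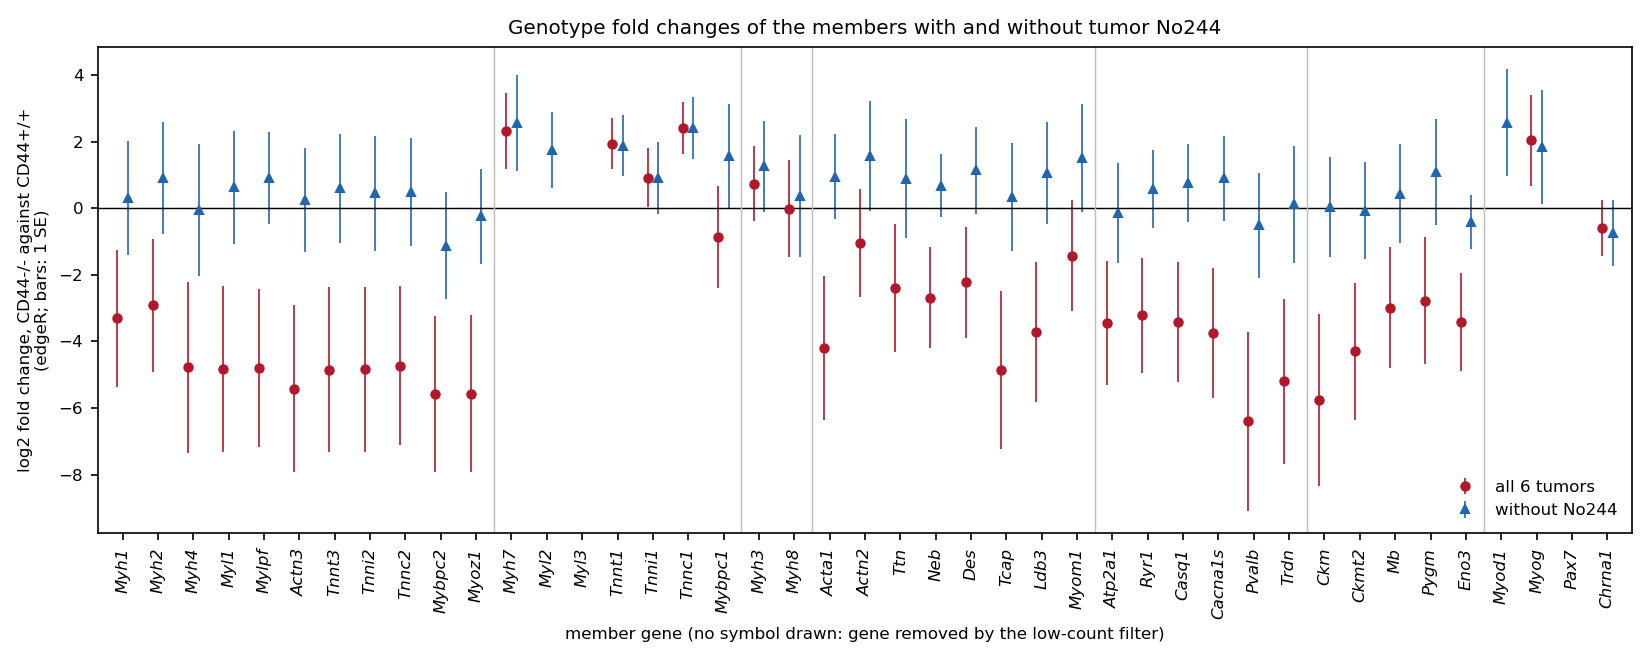
Log2 fold change of each member between CD44-/- and CD44+/+ tumors with its SE, from all 6 tumors (circles) and without No244 (triangles). With all tumors 33 of 39 circles lie below 0, and without No244 33 of 41 triangles lie above it, while the slow genes Tnnc1, Tnnt1, Tnni1 and Myh7 stay above 0 in both.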

How the data were processed

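Poly(A) RNA of 6 tumors was made into stranded libraries and sequenced from one end in 51 cycles. By the study's methods and the submitters' processing notes, the authors extracted reads with bcl2fastq 1.8.4, aligned them to the mouse genome GRCm38 with HISAT2 2.0.2 and counted them per Ensembl gene with featureCounts (Subread 2.0.0), and they deposited the raw counts, not normalized. Settings for strand and for reads matching several genes are not given in the sources used here. Symbols, exon lengths and coordinates are those of GENCODE M21, another release than the one counted on, and 37607 of the 39179 identifiers have a symbol.

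The members and all gene lists were chosen with earlier results of these data known. The CD44-/- and CD44+/+ libraries entered a quasi-likelihood F test of edgeR 4.0.16 (R 4.3.3) after filterByExpr and TMM scaling, with Benjamini-Hochberg adjustment over all genes tested and with DESeq2 1.42.0 and limma-voom (limma 3.58.1) as alternatives. Each number in the sample titles was taken as 1 mouse. The near-identical No316 and No368 entered means as 1 sample but the fits as 2. CPM are counts scaled to the TMM library size, and levels were compared between genes only per kilobase of the union of annotated exons. Shares carry 95% Wilson intervals and levels exact Poisson intervals, both for counting error only. Windows of 51 bases of each member's transcript were searched in all other annotated transcripts on both strands. All 43 members were named, single fold changes given for Acta1, Ckm, Myh4, Myh7, Myh3, Myod1, Myog and Chrna1 (Myod1 failed the filter), and from each companion or other-cell list the 3 genes with the highest mean CPM and those with 0 counts. Other names are marked in the text or are defining markers of the cell type lists, chosen after their counts were seen. Some genes that the rule names are not reported here. Alternatives were 2 other scalings, library size without mitochondrial genes, 2 other filters, No316 and No368 summed, and leaving out each tumor in turn.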

Additional observations from a re-analysis of the deposited data

How the results depend on the processing

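Of 177 values recomputed under other settings, 161 were labelled as unchanged, by rules that differed with the kind of value. Counts of genes had to stay within 1.5 times of the first value. Single fold changes had to keep their sign and side of the threshold. The median fold change had to move by less than the members' median SE. Summed levels and myosin shares had to move by less than the SD of their genotype. For CD44+/+ this SD was wide, so the No244 sum by library size alone, 19056 CPM beside 33774, counted as unchanged. Mean log2 levels, on another scale, were labelled as moved without a comparison. Where edgeR called 0 genes, DESeq2 called 419, and 146 once No316 and No368 were added up as 1 sample. That DESeq2 setting was chosen after seeing the data and called 1 member, Pvalb (log2 fold change -6.99, adjusted p = 0.0364), where edgeR and limma-voom called 0. It gave an adjusted p to 41 members, and DESeq2 on 6 libraries to 14. Pvalb was not among those 14, so DESeq2 on 6 libraries could not have called it. Leaving out each tumor in turn moved the median log2 fold change of the members between -5.76 (without No203) and 0.68 (without No244). It moved Acta1 between -5.81 and 0.95, Ckm between -8.53 and 0.041, Myh3 between -0.77 and 1.30 and Myog between -0.15 and 2.61, with the signs of Acta1 and Ckm turned without No244 and those of Myh3 and Myog without No203. With limma-voom Myh3 was at -0.015. The cause was not tested beyond the tumor left out. As a mean of log2(CPM + 1) over the members, the level was 6.85 in No244, 2.70 in No316, 2.73 in No368, 4.32 in No203, 2.02 in No279 and 0.87 in No364, in the same order as the sums. No paired analysis was possible because the genotypes share no mouse numbers. The biological coefficient of variation of 0.708 was estimated from all 6 libraries, with No316 and No368 entered as 2, and is not that of independent samples alone. With this variation and 2 independent CD44+/+ samples, a p that misses the threshold does not show that the genotypes were alike. Levels under 3 counts, such as Pax7 in every tumor, were below detection.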
